A study of Mus musculus with 2 samples.

Results

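CpG-poor promoters of protein-coding genes were examined in ATAC-seq peak lists of mouse megakaryocytes, the precursor cells of blood platelets. ATAC-seq marks DNA that a transposase can reach, and a peak marks a stretch with more insertions than its surroundings. The series held 1 group of 2 biological replicates, both labelled as primary megakaryocytes of adult C57BL/6J males aged 5 to 6 weeks, with 50000 cells in each sample and no treatment, mutant allele or second cell type. Both carry the same donor record, so the spread between them describes these 2 samples, and how the cells were isolated is not given in the sources used here. Overlapping peaks of a sample were merged, and merged regions that overlapped between the samples were joined into shared regions, of which chromosomes 1 to 19 held 67991. A CpG-poor start was the 5′ end of a protein-coding gene in the GENCODE M21 annotation of mm10 whose surrounding 1 kb had a CpG observed/expected ratio under 0.35 and which had no gene start on the opposite strand within 1 kb. Of the shared regions, 1034 lay within 500 bp of such a 5′ end and form the CpG-poor promoter regions described here. They belong to 987 genes, called open below, out of 7183 genes with a CpG-poor start. The peak lists give no read counts. The depth is therefore unknown, and a start without a region had no accessible stretch detected at that depth.

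Most mammalian promoters lie in CpG islands, stretches that escape the loss of CpG caused by methylation and that tend to be accessible in many cell types. Promoters outside islands tend to belong to genes used by a single lineage or after a stimulus, and a TATA box, the site bound by TATA-binding protein, is found more often among them. In blood cells such promoters are known targets of PU.1, C/EBP, RUNX, GATA and interferon regulatory factors, which open chromatin in a lineage-specific way.

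The DNA just before 11 of these 5′ ends shows what such promoters look like. The first set holds the highest gene of each blood cell gene list described below, where its region covered the 5′ end. Each line gives the 120 bases that end at the base before the 5′ end, on the gene's strand from 5′ to 3′, and GENCODE M21 annotates no exon in any of them. Capitals mark matches to the 18 short motifs that were searched, and the rest is in lower case. The stretches, read from the mm10 genome, are chr1:144775436-144775555 on the minus strand for Rgs18, a brake on G protein signalling in platelets, and chr7:25477604-25477723 on the minus strand for Ceacam1, an adhesion receptor of myeloid and epithelial cells. They are chr6:122952395-122952514 on the plus strand for Clec4a3, a C-type lectin receptor of monocytes, and chr15:103453674-103453793 on the plus strand for Nckap1l, a blood-specific subunit of the WAVE actin complex. For Cd200r4, a CD200 receptor family member, the stretch is chr16:44811613-44811732 on the plus strand. For Bank1, a B cell scaffold protein, it is chr3:136326067-136326186 on the minus strand, and for Klrd1, the NK receptor chain CD94, chr6:129591662-129591781 on the plus strand.
Rgs18: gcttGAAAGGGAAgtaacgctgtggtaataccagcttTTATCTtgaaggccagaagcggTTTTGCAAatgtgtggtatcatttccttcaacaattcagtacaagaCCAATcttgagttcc
Ceacam1: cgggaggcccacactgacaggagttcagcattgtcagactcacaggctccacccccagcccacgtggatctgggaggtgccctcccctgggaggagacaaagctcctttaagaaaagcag
Clec4a3: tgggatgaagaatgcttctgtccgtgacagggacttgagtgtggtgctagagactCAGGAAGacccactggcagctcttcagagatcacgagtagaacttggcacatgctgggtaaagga
Nckap1l: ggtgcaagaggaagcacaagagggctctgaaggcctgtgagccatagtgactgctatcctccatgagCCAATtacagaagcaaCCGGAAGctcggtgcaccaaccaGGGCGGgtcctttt
Cd200r4: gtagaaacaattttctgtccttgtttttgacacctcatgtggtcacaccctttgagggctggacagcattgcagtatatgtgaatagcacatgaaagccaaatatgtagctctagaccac
Bank1: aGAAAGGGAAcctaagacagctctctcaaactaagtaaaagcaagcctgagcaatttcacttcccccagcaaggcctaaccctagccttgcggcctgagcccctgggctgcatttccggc
Klrd1: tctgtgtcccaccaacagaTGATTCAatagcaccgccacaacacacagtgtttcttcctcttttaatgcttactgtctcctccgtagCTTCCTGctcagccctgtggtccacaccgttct

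Rgs18 held letters of an IRF motif at position −116, a GATA motif at −83, a C/EBP motif at −61 and a CCAAT box at −15, counted from the 5′ end with −1 as the last base printed and each position the motif's first base. Nckap1l held a CCAAT box at −53, an ETS motif at −37 that contains a CpG, and a GC box at −14, the binding sequence of SP1-type factors. Ceacam1 and Cd200r4 held none of the 18 motifs in this stretch. None of these 7 stretches held TATAAA.

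The second set holds those of the 6 highest open TATA box genes whose region covered the 5′ end. These are Slc12a3, a sodium-chloride cotransporter of the kidney, at chr8:94329081-94329200 on the plus strand, Clec4e, the lectin receptor Mincle, at chr6:123289871-123289990 on the minus strand, S100a4, a calcium-binding protein, at chr3:90603651-90603770 on the plus strand, and Ccl24, the chemokine eotaxin-2, at chr5:135573050-135573169 on the minus strand.
Slc12a3: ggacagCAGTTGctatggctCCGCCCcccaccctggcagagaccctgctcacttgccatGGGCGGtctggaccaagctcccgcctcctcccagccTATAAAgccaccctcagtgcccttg
Clec4e: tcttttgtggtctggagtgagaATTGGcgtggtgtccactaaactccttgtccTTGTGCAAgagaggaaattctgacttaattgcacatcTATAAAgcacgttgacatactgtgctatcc
S100a4: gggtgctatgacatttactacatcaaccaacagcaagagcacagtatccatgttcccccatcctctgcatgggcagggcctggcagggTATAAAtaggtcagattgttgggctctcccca
Ccl24: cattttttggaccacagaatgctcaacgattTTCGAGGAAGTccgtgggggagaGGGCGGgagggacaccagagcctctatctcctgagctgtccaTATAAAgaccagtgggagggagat

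The TATA box began at −25 in Slc12a3, −30 in Clec4e, −32 in S100a4 and −24 in Ccl24. Clec4e also held a C/EBP motif at −67, and Ccl24 a PU.1 motif at −86 that overlaps letters of a STAT motif at −89. A match is a description of letters, and binding was not measured.

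CpG-poor starts were seldom open. A shared region lay near 987 of 7183 CpG-poor starts (13.7%), against 5515 of 6680 CpG-rich starts (82.6%), those with a ratio of 0.6 or more, and against 48.0% of all 16852 coding starts with no opposite start. Starts of intermediate ratio lay in between, with 1587 of 2989 open (53.1%). Each replicate alone gave the same order. Replicate 1 had a region at 14.4% of CpG-poor, 55.0% of intermediate and 83.5% of CpG-rich starts, and replicate 2 at 15.02%, 55.2% and 84.1%. With 2 samples of 1 group there was no test between classes of start. Of the 6196 CpG-poor starts with no shared region, 6042 had none in either replicate, and 718 (11.6%) belonged to genes with a shared region at another annotated transcript start.

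The share of open starts climbed steadily within the CpG-poor class too. At a ratio under 0.05 it was 3.25% (16 of 492 starts), at 0.15 to 0.2 it was 13.8% (189 of 1365), and at 0.3 to 0.35 it was 28.7% (198 of 690). No step was seen at the limit of 0.35, as 34.7% of starts at 0.35 to 0.4 were open. The fold enrichment of open starts varied less, with medians between 6.59 and 9.14 over the 7 bins under 0.35. Just inside the limit, the regions of Grm4 (ratio 0.349386) and Syn3 (0.349965) had mean fold enrichments of 9.82 and 10.8, and just outside it those of Elf3 (0.350004) and Slc40a1 (0.350023) had 11.2 and 11.8. At the distance limit, Capza2 and Spocd1 at 500 bp were members with 9.72-fold and 12.8-fold enrichment, and regions 501 bp from Tspo2 and 504 bp from Olfr432 were not, at 6.69-fold and 8.12-fold. Olfr432 still counts as open below, through another region within the limit.

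**Figure D1:**
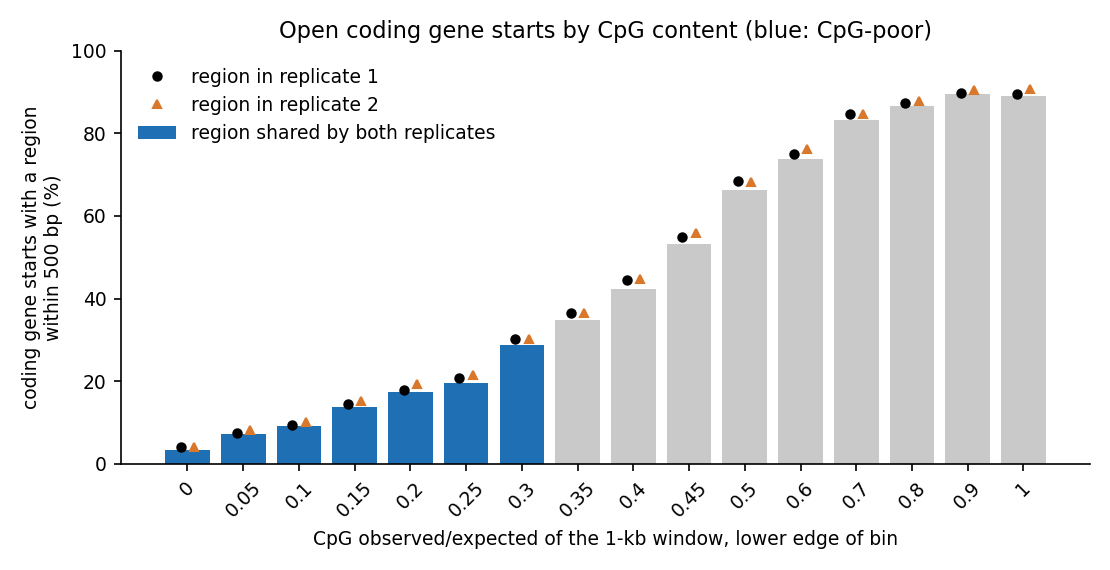
Share of coding gene starts with a region within 500 bp (y axis, %) by the CpG observed/expected ratio of the 1-kb window (x axis, lower edge of each bin; bins widen to the right). Bars are starts with a region shared by both replicates, circles and triangles those with a region in replicate 1 and replicate 2, and blue bars are CpG-poor, climbing to 28.7% in the last blue bin.

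CpG-poor promoter regions were weaker and narrower than CpG-rich ones. Fold enrichment is the enrichment value that the authors list for each peak, read here as a ratio over local background. Its median at CpG-poor promoters was 7.88 in replicate 1 and 7.96 in replicate 2. At CpG-rich promoters it was 11.4 and 11.0. The mean of both replicates had a median of 7.94 (SD of the 2 replicate medians 0.0558, middle 50% of regions 5.74 to 10.6) at CpG-poor promoters, against 10.02 at intermediate and 11.3 at CpG-rich ones. This was close to the 7.51 over all shared regions and above the 7.11 of distal shared regions, those over 1 kb from any transcript start. The median width was 590.5 bp at CpG-poor promoters, 867 bp at CpG-rich ones and 462 bp over all shared regions. A mean enrichment of 10-fold or more was reached by 303 CpG-poor promoter regions (29.3%), against 60.4% at CpG-rich promoters.

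The strongest CpG-poor promoter region belonged to Glipr1l1, a gene of the CAP family known for a role in sperm, with 19.3-fold enrichment in replicate 1 and 21.4-fold in replicate 2, over chr10:112059847-112060430. Several of the next genes take part in defence against microbes. Igtp and Irgm2, interferon-inducible GTPases, shared a region of 18.4-fold and 19.1-fold that covered both 5′ ends. Trim30d, of the TRIM family, had 19.04-fold and 17.7-fold at a CpG ratio of 0.0209, and Trim21, an antibody receptor in the cytosol, had 18.6-fold and 16.8-fold. The zinc finger genes Zfp950 (18.7-fold and 20.1-fold), Zfp993 (22.3-fold and 18.4-fold) and Zfp991 (18.4-fold and 18.8-fold) also ranked among the highest. The regions of Zfp993 and Zfp991 each have 3 near-identical copies elsewhere in the genome, so reads of the copies may not have been kept apart. The other names among the 12 highest were Ccdc180, Gm6904, Gm20594, Sra1 and AA467197, all between 17.6-fold and 20.5-fold in each replicate.

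Some high regions were near a CpG-poor 5′ end without being CpG-poor themselves. The region 212 bp from the 5′ end of Sra1 had a CpG ratio of 0.636 of its own, and the region 500 bp from that of AA467197 one of 0.811. Over all members, the region's own ratio had a median of 0.225. It was under 0.35 in 847 regions (81.9%), 0.35 to 0.6 in 143 and 0.6 or more in 44, and the 44 had a median enrichment of 9.997-fold against 7.77-fold for the 847. The region 402 bp from the 5′ end of Gapdh, a glycolytic enzyme, was also of higher CpG content than its start, with a ratio of 0.584 against 0.287 and a length of 1704 bp.

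The weakest member was a region 404 bp from the start of Scarb2, a lysosomal membrane protein, with 2.12-fold and 2.17-fold enrichment. Hcls1, an actin regulator of blood cells, Scimp, an adaptor of antigen-presenting cells, Ggt5 and Fam84b supplied the next regions, between 2.43-fold and 2.85-fold in each replicate. All 4 of these genes had a second, stronger member region. At Hcls1 the stronger region covered the 5′ end with 7.57-fold and 7.63-fold. In all, 60 genes were reached by 2 or more regions, and 13 regions reached 2 or more CpG-poor starts.

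The widest member was that of 9930111J21Rik2 with 2066 bp, followed by the region shared by Lilr4b and Gm49339 with 1764 bp, that of Cd37 with 1754 bp, that of Gapdh and that of Ptger2, a prostaglandin E2 receptor, with 1688 bp. The regions of 9930111J21Rik2 and Lilr4b each had 1 near-identical copy. Such a copy was found for 57 members in all, and these had a median enrichment of 9.53-fold against 7.79-fold for those without.

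The replicates ranked CpG-poor promoters alike (Spearman's rho 0.941 over the 1034 regions, a description across regions of 2 samples). The median log2 ratio of replicate 2 to replicate 1 was 0.02 (SD 0.22 over regions) at CpG-poor promoters, against −0.04 at CpG-rich promoters and 0.05 over all shared regions. A 1.5-fold or larger excess in replicate 2 was seen at 16 CpG-poor promoter regions (1.55%), against 3.22% of all shared regions. An excess of that size in replicate 1 was seen at 3 (0.290%), against 0.306%. The members' shares thus did not exceed those of all shared regions.

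The genes furthest apart in the direction of replicate 2 were led by Lrrc39, a leucine-rich repeat protein of striated muscle, with 6.86-fold in replicate 2 and 3.55-fold in replicate 1. Ms4a7, of the MS4A membrane proteins of macrophages, had 9.33-fold in replicate 2 and 5.33-fold in replicate 1, and Gzmb, the cytotoxic protease granzyme B, had 8.78-fold and 5.04-fold. Ypel4 and Gm6710 were the other 2 of these 5. In the other direction stood Prg2, an eosinophil granule protein, with 3.71-fold in replicate 2 and 6.24-fold in replicate 1, followed by Pkhd1l1, Sh2d1b2, an adaptor of NK cells, Kcnk7 and Cd79b, a B cell receptor chain, at log2 ratios of −0.75, −0.60, −0.57 and −0.56. No region of these 10 except that of Sh2d1b2 was in the stricter lists of both replicates.

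**Figure D2:**
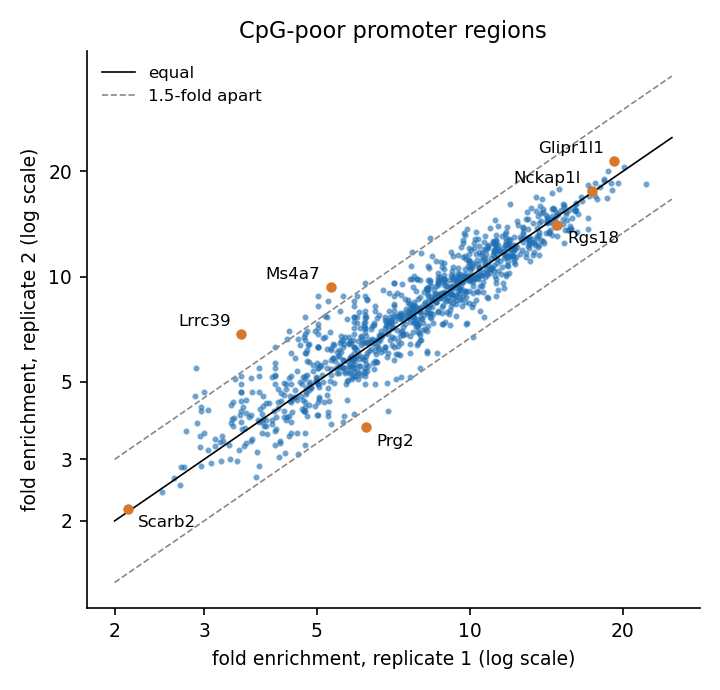
Fold enrichment of the 1034 CpG-poor promoter regions in replicate 2 (y axis, log scale) against replicate 1 (x axis, log scale). The solid line marks equality and the dashed lines a 1.5-fold difference, past which 16 regions lie above and 3 below. Named genes are in orange.

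Presence in the stricter lists differed between classes more than the ratios did. The authors' lists thresholded on the irreproducible discovery rate (IDR), a measure of how repeatable a peak's rank is, held 676 of the CpG-poor promoter regions in both replicates (65.4%), against 53.3% of all shared regions and 86.2% of CpG-rich promoter regions. A further 241 (23.3%) were in neither list. Starts with a region in 1 replicate only made up 15.1% of the CpG-poor starts with any region, 8.32% of the intermediate and 3.13% of the CpG-rich ones. Each replicate's own regions were counted here. Some open starts, such as that of Gda, are thus included, where only 1 replicate's part of the shared region came within 500 bp.

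The median peak was highest just upstream of the 5′ end, among regions kept for lying within 500 bp of it. The summit, the highest point of a peak, lay at a median of −20 bp in each replicate, with the middle 50% of region and gene pairs between −84.1 and 110.6 bp of the 5′ end. The summit was within 100 bp of the 5′ end for 53.2% of CpG-poor pairs, against 59.9% of CpG-rich ones. The median offset of CpG-rich pairs was −26 bp in replicate 1 and −24 bp in replicate 2. Merged regions reached further downstream than upstream. In replicate 1 they covered the base 500 bp before the 5′ end at 17.6% of open CpG-poor starts, and 500 bp after it at 30.1%. In replicate 2 the shares were 19.4% and 30.8%. A region covered the 5′ end itself in 73.6% of CpG-poor pairs, against 87.1% of CpG-rich pairs. The 759 regions that covered it had a median enrichment of 8.31 in replicate 1 and 8.51 in replicate 2, against 6.48 and 6.79 for the 275 that did not. The summit fell in a repeat for 109 CpG-poor promoter regions (10.5%), against 4.19% at CpG-rich promoters and 9.49% over all shared regions.

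**Figure D3:**
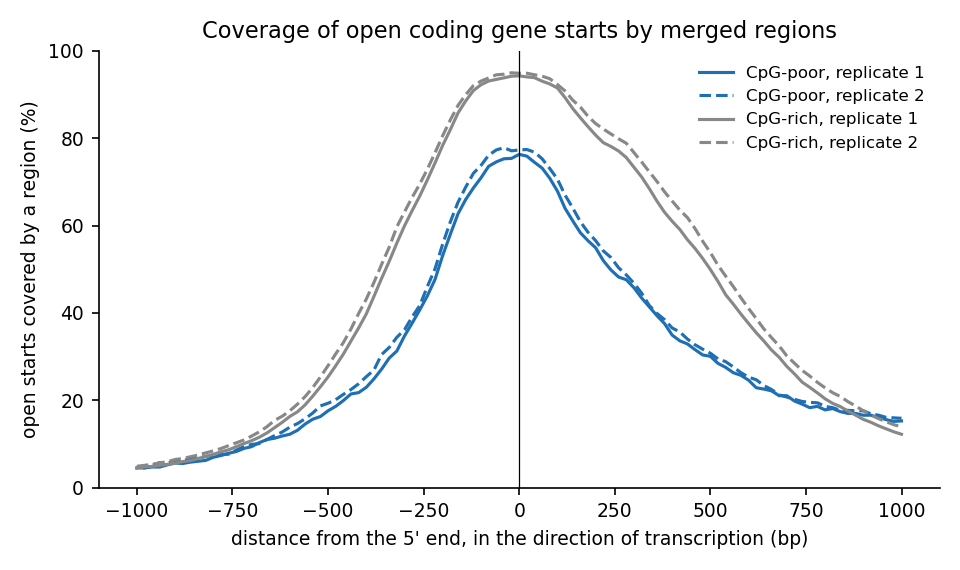
Share of open starts covered by a merged region (y axis, %) by distance from the 5′ end in the direction of transcription (x axis, bp), for CpG-poor starts (blue) and CpG-rich starts (grey) in replicate 1 (solid) and replicate 2 (dashed). At the 5′ end 76.3% and 77.3% of open CpG-poor starts were covered in replicate 1 and replicate 2, against 94.3% and 94.9% of CpG-rich ones.

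Open CpG-poor genes had more accessible DNA around them than those without a region. Within 50 kb of the start lay a mean of 5.11 distal shared regions for open CpG-poor genes, against 2.00 for CpG-poor genes without a shared region, and the open CpG-rich genes had 3.93. No distal region was found near 6.08% of the open CpG-poor genes, against 46.5% of those without a shared region. Read the other way, 2.04% of the 2943 CpG-poor starts with no distal region nearby were open, 15.5% of the 1298 with 2 to 3, and 37.3% of the 793 with 7 or more. CpG-rich starts had 53.8% open with none nearby and 93.4% with 7 or more. The open CpG-poor genes were also longer (median 17012 bp, against 8500.5 bp for those without a shared region), had more exons (7 against 4), included a smaller share of genes with 1 exon (15 genes or 1.52%, against 603 or 9.73%) and had a higher GC content around the start (median 49.4%, against 44.8%). Olfactory and vomeronasal receptor genes, nearly all without a region as given below, were kept in these CpG-poor sets. Their part in these differences was not tested.

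Large tandem families of sensory and barrier genes were nearly all without a region. Of these, 7 of 1112 CpG-poor olfactory receptor genes were open (0.629%), and none of 322 vomeronasal receptor, 53 keratin-associated protein or 62 defensin genes. The 7 were Olfr557, at 9.48-fold and 11.5-fold, Olfr432, Olfr433, Olfr110, Olfr961, Olfr548-ps1 and Olfr525, and Olfr432 and Olfr433 start within a run of genes that also holds Ifi203, Ifi205, Ifi211 and Mndal on chromosome 1. Without olfactory and vomeronasal receptors, 980 of 5749 CpG-poor starts were open (17.0%). CpG-poor starts with no other within 50 kb were open in 16.5% of cases, and those in runs of 10 or more in 3.30%. With the sensory receptors left out, a choice made after the values were seen, these shares were 17.3% and 8.37%. By chromosome the share went from 8.68% on chromosome 14 to 21.3% on chromosome 1.

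Other runs of neighbouring CpG-poor genes ranged from few open starts to all of them. On chromosome 17, 6 of 7 starts in the run of Trem genes, receptors of myeloid cells, were open, and on chromosome 6, 7 of 9 in the run of Gimap genes, GTPases of lymphocytes. All 5 starts of the run that holds C1ra, C1rb, C1s1 and C1rl, proteases of the complement cascade and their relatives, were open, together with Clstn3. The run of Cd300 genes had 5 of 10 open, that of Ifi203, Ifi205, Ifi211 and Mndal 6 of 14, that of Ugt1a genes 4 of 10, and the long run that holds Hbb-bs, Hbb-bt and several Trim genes 7 of 68. Open starts were 4 of 5 in the run of Phf11 genes and 4 of 6 in that of Ccl3 and Ccl4, chemokines of macrophages.

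Most gene families with immune roles had a larger share open than the 13.7% of all CpG-poor starts, with exceptions. Of the interferon-activated p200 genes, which include DNA sensors, 10 of 11 were open, led by Ifi206 at 9.76-fold in replicate 1 and 13.3-fold in replicate 2. Siglecs, receptors for sialic acid, had 5 of 6 open, toll-like receptors, sensors of microbial products, 5 of 6, and TREM receptors 5 of 6, led by Siglecg, Tlr11 and Trem3. Schlafen genes had 6 of 9 open (led by Slfn8), GIMAP GTPases 6 of 8 (Gimap6), CD300 receptors 7 of 12 (Cd300lf), SLAM family receptors 3 of 5 (Slamf9) and stefins, inhibitors of cysteine proteases, 3 of 4 (Stfa3). C-type lectins had 12 of 27 open, killer cell lectin-like receptors 10 of 23, TRIM genes 13 of 32, C-C chemokines 7 of 21 (led by Ccl2, at 13.6-fold and 12.2-fold), C-C chemokine receptors 3 of 10 (Ccr1) and MS4A genes 4 of 16 (Ms4a3). All 3 purinergic P2Y receptors were open, led by P2ry2, whose region lay 364 bp from the 5′ end and had a CpG ratio of its own of 0.727. The eosinophil ribonucleases had 0 of 5 open, and the defensins, antimicrobial peptides, were without a region as given above. Shares near that of all CpG-poor starts were seen in larger families. Serpins had 7 of 56 open (12.5%, led by Serpinb8), solute carriers 12 of 110 (10.9%, led by Slc28a2, whose region has 2 copies), cytochromes P450 7 of 78 (8.97%, led by Cyp4f13) and Prss serine proteases 4 of 26 (led by Prss43). Zinc finger genes had 13 of 59 open (22.0%). Members of a family are often neighbours and similar in sequence, so they are not independent. The families were chosen with earlier results of these data known, which can bear on these shares.

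Genes of the labelled cell type were partly open. Of 28 CpG-poor genes in the megakaryocyte and platelet list, 11 had a shared region (39.3%), with 12 having a region in replicate 1 and 15 in replicate 2, against 13.7% of all CpG-poor starts. Rgs18 was the highest, with 14.9-fold enrichment in replicate 1 and 14.1-fold in replicate 2. Lat, an adaptor of platelet collagen signalling and of T cells, had 10.7-fold and 12.6-fold. Nfe2, a transcription factor needed for platelet release, had 9.75-fold and 10.03-fold.

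Itga6, the laminin receptor chain α6, had 8.89-fold and 10.5-fold in a region 342 bp from its 5′ end. Itga2b, the αIIb chain of the fibrinogen receptor and a defining marker of the lineage, had 6.398-fold and 6.22-fold over its 5′ end. P2rx1, Fermt3, Sla2, F2rl2, F2rl3 and P2ry12 were the other open genes, with P2ry12, the platelet ADP receptor, lowest at 4.41-fold and 3.98-fold. The 17 without a shared region included defining genes of the lineage, several of them named after their values were seen. The glycoprotein genes Gp5 and Gp6, the platelet chemokine gene Ppbp and the tubulin gene Tubb1 had a region in neither replicate at the annotated 5′ end. Gp1ba had one in replicate 1 alone and Gp9 in replicate 2 alone. Cd226, F13a1 and Vwf had no region at the 5′ end but a shared region at another transcript start, and Clec1b had none.

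Lists of several other blood cell types had a larger share of open CpG-poor promoters than the megakaryocyte list. All lists, the megakaryocyte one included, were chosen with earlier results of these data known, so the choice of genes can bear on these shares. The neutrophil list had 34 of 42 open (81.0%), the shared leukocyte list 35 of 43 (81.4%), the monocyte and macrophage list 45 of 59 (76.3%) and the T and NK cell list 20 of 32 (62.5%). The mast cell, basophil and eosinophil list had 11 of 26 (42.3%), the erythroid list 9 of 26 (34.6%) and the B cell list 8 of 24 (33.3%). Lists of tissues outside the blood gave 0 of 27 hepatocyte genes, 0 of 19 skin and epithelial keratin genes, 2 of 27 pancreas and gut genes and 1 of 13 muscle genes. With the stricter peak lists given below, the order relative to the megakaryocyte list (21.4%) turned round in both directions. T and NK cells (9.38%) and mast cells, basophils and eosinophils (15.4%) then had a smaller share than megakaryocytes. B cells (25%) then had a larger share, having been lower in the main lists (33.3% against 39.3%). How many cells of each kind the samples held cannot be told from peak lists, and the part of other cells in these counts was not tested.

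In the neutrophil list Ceacam1 led with 14.2-fold in replicate 1 and 14.3-fold in replicate 2. Stfa3, a stefin, had 13.9-fold and 12.6-fold, and Mmp8, the neutrophil collagenase, had 12.2-fold and 11.5-fold. Gda, guanine deaminase, had 13.6-fold and 12.9-fold in a shared region 490 bp from its 5′ end. Replicate 1's own part of that region did not come within 500 bp. Elane and Fpr1 had a region in neither replicate, Chil3 had one in replicate 2 alone, and Il1r2 only at another transcript start.

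In the monocyte and macrophage list Clec4a3 led with 17.3-fold and 17.8-fold. Cd300lf, an inhibitory receptor, had 14.6-fold and 15.8-fold, Clec4a1, a lectin, 13.95-fold and 15.4-fold, and Itgal, the α chain of the integrin LFA-1, 13.8-fold and 14.5-fold. Spi1, which encodes PU.1, had 7.73-fold and 7.83-fold in a region 489 bp from its 5′ end, and is named after its value was seen. C1qa and Axl had a region in neither replicate, C1qb had one in replicate 2 alone, and Aif1 had a shared region only at another transcript start.

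Among the shared leukocyte genes Nckap1l led with 17.4-fold and 17.6-fold. Rgs1, a brake on chemokine receptor signalling, had 13.7-fold and 12.3-fold, Myo1f, an unconventional myosin, 11.3-fold and 11.6-fold, and Tnfaip8l2, a regulator of immune balance, 11.6-fold and 9.58-fold. Coro1a, Cytip and Emb had no shared region at the annotated 5′ end, and each had one at another transcript start.

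The open T and NK cell genes had a median mean enrichment of 6.03 and the open B cell genes one of 9.37, against 9.001 for megakaryocyte and platelet, 8.72 for shared leukocyte, 7.55 for neutrophil and 7.52 for monocyte and macrophage genes. Klrd1 had 11.9-fold and 13.9-fold, Cd5, an inhibitory receptor of T cells, 11.2-fold and 14.5-fold, Klrk1, the activating receptor NKG2D, 10-fold and 9.71-fold, and Prf1, the pore-forming protein perforin, 8.42-fold and 11.5-fold. Cd3e had a region in neither replicate, Cd27 had one in replicate 2 alone, and Cd3d and Cd28 only had a shared region at another transcript start. In the B cell list Bank1 had 15.7-fold and 13.97-fold, Fcrl1, an Fc receptor-like protein, 14.1-fold and 13.3-fold, Il7r, a cytokine receptor of lymphoid precursors, 10.2-fold and 9.85-fold, and Cd37, a tetraspanin, 9.55-fold and 9.22-fold. Blk and Cd79a, genes of B cell receptor signalling, had a region in neither replicate, and Cd22 had one only at another transcript start.

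Mast cell, basophil and eosinophil genes were led by Cd200r4 with 13.4-fold and 11.7-fold and Prg3, an eosinophil granule protein, with 11.0-fold and 13.8-fold. Cd69, an activation marker, had 8.21-fold and 8.25-fold, and Fcer1a, the α chain of the high-affinity IgE receptor, 8.21-fold and 7.94-fold. Cpa3, Cma1 and Cd200r3 had a region in neither replicate, and Ccr3 had one in replicate 2 alone. In the erythroid list Isg20, an exonuclease, had 8.28-fold and 7.23-fold in a region that began 8 bp after its 5′ end. The adult globin genes were also open. Hbb-bs had 7.004-fold and 7.36-fold, Hbb-bt 5.69-fold and 6.72-fold, and Hba-a1, whose region has 1 near-identical copy, 6.53-fold and 5.69-fold. The regions of Hbb-bs and Hbb-bt covered the 5′ ends, but their summits, averaged over the replicates, lay 714.5 and 622 bp downstream. Car1 and Cldn13 had a region in neither replicate, Aqp1 had one in replicate 2 alone, and Acp5 had a shared region only at another transcript start.

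Outside the blood lists 3 genes were open. Tnni2, a troponin of fast muscle, had 10.9-fold and 12.3-fold in a region 473 bp from its 5′ end, with its summit, averaged over the replicates, 1031.5 bp downstream. The pancreatic protease genes Cela3b and Prss2 had 6.22-fold and 5.21-fold, and 4.22-fold and 3.04-fold, over their 5′ ends.

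The stricter peak lists separated the blood lists further. With shared regions built from the IDR-thresholded lists, 661 of 7183 CpG-poor starts were open (9.20%). The neutrophil list then had 26 of 42 (61.9%), the monocyte and macrophage list 31 of 59 (52.5%) and the shared leukocyte list 30 of 43 (69.8%). The megakaryocyte and platelet list had 6 of 28 (21.4%), the B cell list 6 of 24 (25%), the mast cell, basophil and eosinophil list 4 of 26 (15.4%), the T and NK cell list 3 of 32 (9.38%) and the erythroid list 2 of 26 (7.69%). Regions of T and NK cell genes were thus mostly ones that the stricter lists did not hold in both replicates.

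**Figure D4:**
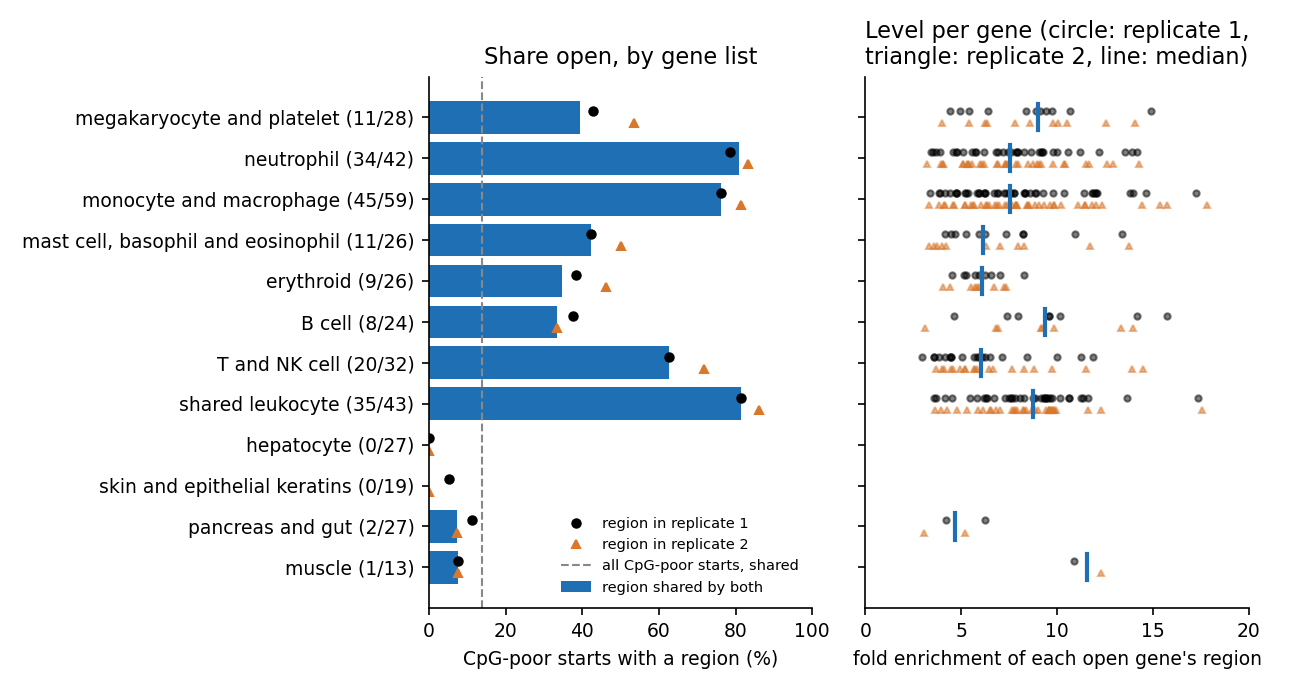
Left, share of the CpG-poor starts of each gene list with a region (x axis, %), as bars for regions shared by both replicates and as circles and triangles for replicate 1 and replicate 2, with open and total genes in parentheses and the 13.7% of all CpG-poor starts as a dashed line. Right, fold enrichment of each open gene (x axis) in replicate 1 (circles) and replicate 2 (triangles) with the list's median as a line, between 4.67 and 11.6.

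The share of starts with a TATA box was smaller at open CpG-poor starts than at those without a region. TATAAA on the gene's strand, starting 40 to 20 bp before the 5′ end, was present at 22 of 987 open CpG-poor starts (2.23%), against 351 of 6042 CpG-poor starts with a region in neither replicate (5.81%). Open CpG-rich starts had it in 0.762% and all coding starts in 2.48%. The motif was most frequent 31 bp before the 5′ end, where 1.06% of the starts with a region in neither replicate had it. The 22 open TATA box genes included the inflammatory genes Tnf, Il1b, Ccl4, Ccl12 and Cxcl3 and the eosinophil genes Prg2 and Epx, named here after their values were seen. Their regions had a median enrichment of 7.398 in replicate 1 and 7.82 in replicate 2, against 8.17 and 8.32 for open starts without the motif.

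Muc1, a membrane mucin, was the highest of these genes with 14.9-fold and 13.04-fold. Its region lay 460 bp from the 5′ end, so that the TATA box was not inside the region. Slc12a3 had 10.1-fold and 10.8-fold, Clec4e 9.23-fold and 10.4-fold, S100a4 10.8-fold and 8.75-fold, and Ccl24 9.97-fold and 8.43-fold, all over the 5′ end shown above.

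Motifs of blood transcription factors were unevenly spread between CpG-poor starts with and without a region. They were searched on both strands in the 300 bases from 250 before to 50 after each 5′ end. GAGGAAGT, the core of the PU.1 motif, was found at 11.4% of open CpG-poor starts, against 3.89% of CpG-poor starts with a region in neither replicate, 2.45% of open CpG-rich starts and 3.26% of all coding starts. The related ETS letters CAGGAAG were found at 26.5% of open CpG-poor starts, against 13.7%, 10.1% and 12.4% in the same 3 sets. For RUNX, TGTGGTT, the shares were 11.0% against 7.80%, 3.45% and 5.20%, and for IRF, GAAANNGAA, 15.1% against 10.4%, 6.53% and 8.44%.

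Other motifs were higher, lower or nearly equal at open CpG-poor starts. The C/EBP letters TTGCNNAA were found at 16.9% of open CpG-poor starts and 15.1% of those with a region in neither replicate, and AP-1, TGANTCA, at 11.1% and 11.4%. The GATA letters AGATAA were found at 13.2% of open CpG-poor starts against 17.7% of those with a region in neither replicate and 9.94% of all coding starts. The NF-E2 motif GCTGANTCA, which contains the AP-1 letters, was found at 2.13% against 1.37%. CCAAT was found at 33.0% of open CpG-poor starts against 40.4%, and the GC box GGGCGG at 17.8% against 6.98%, with 72.2% at open CpG-rich starts. The GC box contains a CpG, so its share is tied to the CpG ratio that defines the classes. That ratio had a median of 0.216 at open CpG-poor starts and 0.156 at those without a shared region. GC content also moved with the motif shares, as given above. The part of either in them was not tested.

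**Figure D5:**
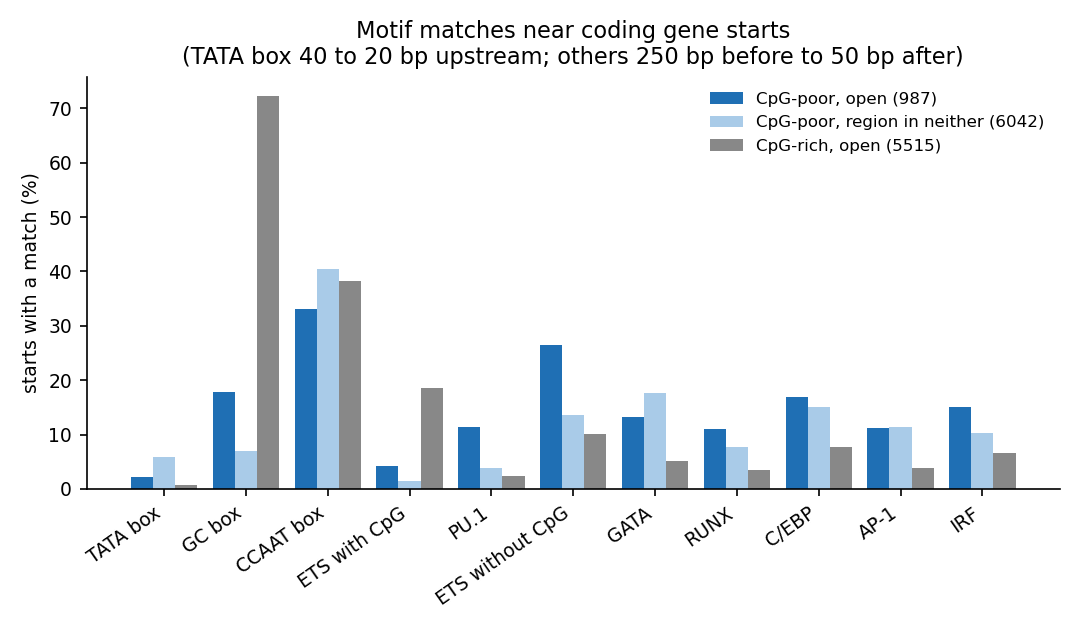
Share of starts with a motif match (y axis, %) for 11 of the 18 motifs (x axis), at open CpG-poor starts (blue), CpG-poor starts with a region in neither replicate (light blue) and open CpG-rich starts (grey). PU.1 letters were at 11.4% of open CpG-poor starts against 3.89% and 2.45%. The GC box, which contains a CpG and so is tied to how the classes are defined, was at 72.2% of open CpG-rich starts.

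Around the summits, CpG-poor promoter regions were set against distal and all shared regions. Within 100 bp of the summit, GAGGAAGT was found in 12.7% of the CpG-poor promoter regions, against 11.96% of distal shared regions and 10.1% of all shared regions. CAGGAAG was found in 23.9%, against 19.6% and 17.7% of the same 2 sets. The IRF letters were found in 11.03%, against 8.82% and 7.79%, and AGATAA in 7.54%, against 9.20% and 7.85%. The GC box was in 20.3% of CpG-poor promoter regions, against 7.08% of distal and 18.1% of all shared regions. Members with the PU.1 letters had a median enrichment of 8.08 and those without 7.91.

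Motif counts in the gene lists were small. The PU.1 letters were at 9 of 45 open monocyte and macrophage starts, 8 of 35 open shared leukocyte starts, 3 of 34 open neutrophil starts and 1 of 11 open megakaryocyte and platelet starts. At starts of these lists without a shared region they were at 1 of 14, 0 of 8, 3 of 8 and 0 of 17, so that the neutrophil list went in the other direction. The C/EBP letters were at 14 of the 34 open neutrophil starts and at none of the 8 without a shared region. This was not particular to neutrophil genes. In the megakaryocyte and platelet list they were at 4 of 11 open starts and 0 of 17 without a shared region. The T and NK cell list had 4 of 20 and 0 of 12. The mast cell, basophil and eosinophil list went the other way, with 2 of 11 and 3 of 15.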

How the data were processed

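ATAC-seq peaks of 2 samples, 1 group, were analysed. Per the labels, the authors called peaks on mm10, and the caller and aligner are not given in the sources used here. The deposited lists hold for each peak an enrichment value, the −log10 p-value and the summit position, taken by their place in the peak format. The enrichment value was read as a fold of signal over local background, which no label states. All columns were mapped to a sample, with 0 left unmapped. Used were each sample's pseudoreplicated peaks and, for comparison, its IDR-thresholded peaks. The lists of pooled samples were not used. No scaling between samples is stated, and depth is unknown.

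Peaks sharing 1 bp or more were joined, keeping the highest fold enrichment and its summit, and so were regions between samples. The computations used Python 3.11.15, pandas 2.3.3 and NumPy 2.4.6, with GENCODE M21 gene starts and the mm10 sequence. A gene's 5′ end is its outermost annotated base. CpG observed/expected was the CpG count times the window length over the product of the C and G counts. Near-identical copies were other places with at least 95% identity over 80% of a region, found with minimap2 2.31. Runs joined CpG-poor starts within 50 kb of each other. The scripts were tested on simulated data.

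The members, the 12 gene lists, the 29 families and the 18 motifs were chosen with earlier results of these data known. Of 490 listed gene entries, 480 were in the annotation. Named genes were the 12 highest and 5 lowest members, the 5 furthest apart between replicates in each direction, the 5 widest, the starts nearest to each limit, the 6 highest TATA box genes, the highest gene of families with 3 or more open genes, and per list the 4 highest open genes and up to 4 in alphabetical order of those without a shared region. A few genes within these limits are not reported here. With 1 group, no test between groups was possible. Each difference is given with both replicates' values or as a description. Alternatives were stricter peak lists, other CpG and distance limits, 50% reciprocal overlap, other TATA box rules and each replicate left out.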

Additional observations from a re-analysis of the deposited data

How the results depend on the processing

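Of 43 alternative values, 23 stayed within 1.5 times a count, within the spread between replicates or within a share's exact 95% binomial interval, and 20 did not. For the summit offset, whose spread was 0, the limit was 1 bp instead. For the median log2 ratio the limit was the median over regions of each region's spread between replicates, 0.0848. That limit is wide for a median over many regions, so staying within it says little. The 1034 CpG-poor promoter regions were 676 with the IDR-thresholded peaks and 655 at a CpG limit of 0.25. Counts under the other settings lay between 867 (regions within 250 bp) and 1490 (a limit of 0.45), and between 1105 and 1157 with a replicate left out. The share of open CpG-poor starts, 13.7%, was 9.20% with the IDR-thresholded peaks, 12.6% with peaks of at least 4-fold enrichment, 11.0% and 17.1% at CpG limits of 0.25 and 0.45, 12.2% within 250 bp, and 14.4% to 15.02% with a replicate left out. The median fold enrichment, 7.94, was 9.53, 8.51, 7.56, 8.27 and 8.11 under these same settings in that order, and 7.45 to 7.48 with a replicate left out. The ratio of the median of CpG-poor to that of all coding promoter regions was 0.733 in fold enrichment and 0.446 in −log10 p-value. The median summit offset was −23.0 bp for regions within 250 bp. With TATAA in place of TATAAA, 4.05% of open CpG-poor starts held the motif, and at a CpG limit of 0.25 the share in both IDR-thresholded lists was 61.7%, against 65.4%. The median log2 ratio between replicates stayed between 0.01 and 0.03 under all 7 of its alternatives. The cause of these shifts was not tested beyond the settings themselves, which keep stronger peaks or other starts. No paired analysis was possible because the series holds 1 group. An unknown depth limits what can be read from missing regions, above all for weak ones, and the annotated 5′ end may differ from the start used in these cells.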
